A study of Mus musculus with 6 samples.

Results

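Fibro-adipogenic progenitors are interstitial cells of skeletal muscle that lie between the myofibers and can become fibroblasts or fat cells. Together with fibroblasts they make much of the collagen, proteoglycan and glycoprotein matrix around the fibers, and in muscle they are commonly recognised by the receptor Pdgfra. The 10 genes examined here mark these cells or encode matrix that they secrete. Pdgfra, Thy1, Cd34 and Fap encode proteins of the cell surface, Dcn and Lum encode small leucine-rich proteoglycans, Fn1 and Fbn1 encode fibril-forming glycoproteins, and Postn and Tnc encode matricellular proteins. They were chosen by gene symbol as markers of these cells, with earlier results of these data known, out of 45777 genes in the count table. All 10 were among the 16188 genes with enough counts to be tested.

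RNA was sequenced from whole tibialis anterior muscle of male C57BL/6J mice, with 1 library per mouse and 3 mice per group. BML-260, a small molecule used in the study as an inhibitor of the phosphatase DUSP22, was injected intraperitoneally at 5 mg/kg every 24 h for 4 weeks. Vehicle mice received the same schedule of the carrier, 5% DMSO with 5% Tween 80. The labels give an age of 24 months for both groups, whereas the methods give 24 to 26 months and the results text of the study gives 27 months. No young or untreated mice were sequenced among these 6 libraries, so every value below is from muscle of aged mice given intraperitoneal injections. In whole muscle fewer cells of a type and less RNA per cell cannot be told apart.

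The libraries held 39522890 to 56998875 counts. Vehicle replicate 3 stood apart from the other 5 libraries: it was the highest library for 31.8% and the lowest for 31.7% of tested genes. Among the 10 genes it was the highest for 7 and the lowest for Thy1 and Lum. Results are therefore given with and without it. Counts below are normalized by the size factors of DESeq2, a log2 fold change is BML-260 over vehicle, and a gene is called when the fold is at least 1.3 with an unadjusted p below 0.05.

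Of the 10 genes 1, Postn, was called, and it was lower with BML-260. Over all tested genes 5.75% were called in either direction and 4.86% were called lower. After Benjamini-Hochberg adjustment in edgeR no member passed 0.05, with adjusted p from 0.788 for Pdgfra, Fbn1, Postn and Tnc to 0.992 for Fap, and 0 of 16188 genes passed, while 966 had an unadjusted p below 0.05. DESeq2 placed 95 genes, 0.587%, below an adjusted p of 0.05, and none of them was a member. Of the fold changes 8 were below 0 and 2 were above, and their median on the log2 scale was -0.24 against -0.0039 over all tested genes. No member had vehicle and BML-260 libraries without overlap, against a background of 12.2% of tested genes. Without Vehicle replicate 3, 0 of 10 members were called, against 3.98% of 16502 genes, and 6 fold changes were lower and 4 higher with a median of -0.087.

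The number of members called moved with the library left out and with the tool, as did the background. It was 3 without Vehicle replicate 1 (13.3% of all genes), 2 without Vehicle replicate 2 (7.22%), 1 without BML-260 replicate 1 (4.19%), 0 without BML-260 replicate 2 (3.00%) and 0 without BML-260 replicate 3 (3.91%). DESeq2 called 2 members (6.31% of all genes), as did edgeR with no filter on low counts (5.49%), and these were Postn and Tnc. Limma on TPM called 0, with 3.22% of all genes called at a pseudocount of 1 and 4.37% at 0.1. All members called under any of these settings were lower with BML-260.

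**Figure D1:**
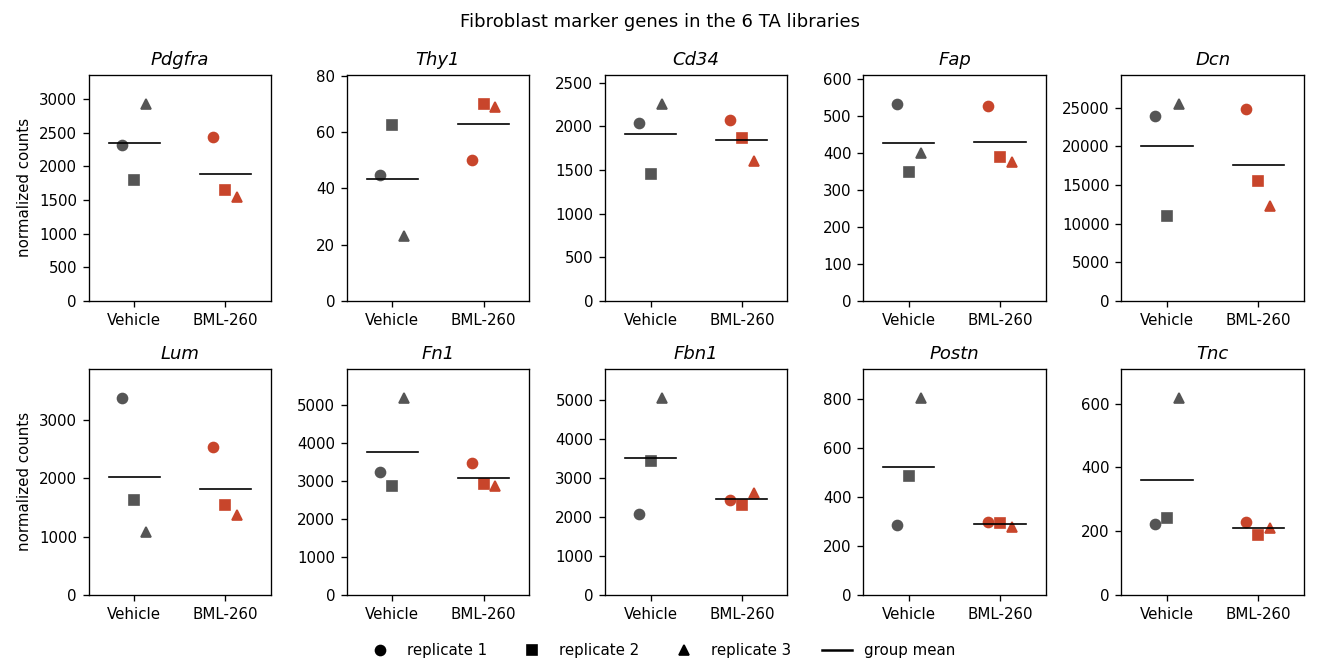
Normalized counts (y axis, linear, with a separate scale from 0 for each gene) of the 10 genes in the 3 vehicle and 3 BML-260 libraries, with each point 1 mouse and each bar the mean of its group. Vehicle replicate 3 is the highest point for 7 genes, and the 2 groups overlap for all 10.

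The matricellular genes had the largest differences with all 6 libraries, whereas without Vehicle replicate 3 the largest was that of Lum, at -0.47. Postn encodes periostin, a secreted protein that binds collagen and integrins and is abundant in matrix under repair. Its normalized counts were 283.5, 484 and 801 in vehicle replicates 1 to 3 and 297, 293 and 279 in BML-260 replicates 1 to 3. Vehicle replicate 1 lay inside the BML-260 range, while the other two vehicle libraries lay above it. The vehicle mean was 523 ± 261 (SD, n = 3) and the BML-260 mean 289.5 ± 9.55 (SD, n = 3). The log2 fold change was -0.86 with an SE of 0.33 (edgeR quasi-likelihood test, unadjusted p = 0.0297 and Benjamini-Hochberg adjusted p = 0.788). Without Vehicle replicate 3 it was -0.40 (edgeR, unadjusted p = 0.0905). Postn was also not called without any 1 of the BML-260 replicates, and it was called without Vehicle replicate 1, at -1.15, and without Vehicle replicate 2, at -0.91.

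Tnc encodes tenascin-C, a large hexameric glycoprotein that is sparse in resting adult muscle and more abundant in injured tissue. Tnc had normalized counts of 223, 240.1 and 617 with vehicle and 229, 187 and 211 with BML-260. Only Vehicle replicate 3 stood clear of the rest, at 2.57 times the next highest library, and vehicle replicate 1 fell inside the BML-260 range. This gave a log2 fold change of -0.79 with an SE of 0.38 (edgeR, unadjusted p = 0.0683). It was -0.15 without Vehicle replicate 3 (edgeR, unadjusted p = 0.454). Tnc was called without Vehicle replicate 1, at -1.04, without Vehicle replicate 2, at -1.01, and with DESeq2 or no filter on low counts.

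The fibril-forming glycoproteins had smaller differences than Postn and Tnc, and neither gene was called with all 6 libraries. Fbn1 encodes fibrillin-1, the main protein of the microfibrils that scaffold elastic fibers. In the vehicle libraries Fbn1 had normalized counts of 2076, 3418 and 5032, and with BML-260 it had 2423, 2297 and 2619.5. The vehicle libraries held both the lowest and the highest value, so the BML-260 range lay wholly within theirs. The vehicle mean of 3508 ± 1480.0 (SD, n = 3) stood beside a BML-260 mean of 2447 ± 163 (SD, n = 3), and the log2 fold change was -0.52 with an SE of 0.28 (edgeR, unadjusted p = 0.0986). Leaving out Vehicle replicate 1, the lowest library, gave -0.79 and a call, whereas leaving out Vehicle replicate 3 gave -0.17.

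Fn1 encodes fibronectin, the adhesive glycoprotein on which cells assemble other matrix. Fn1 had normalized counts of 3248, 2879 and 5189 with vehicle and 3481, 2922 and 2881 with BML-260. Apart from Vehicle replicate 3, at 1.49 times the next highest library, the 5 libraries lay between 2879 and 3481. Fn1 had a log2 fold change of -0.29 with an SE of 0.23 (edgeR, unadjusted p = 0.2399), and 0.011 without Vehicle replicate 3.

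The bases before the start of Postn, Tnc and Fbn1 are shown because these 3 genes had the most negative fold changes, and those of Cd34 because its fold change was close to 0. Each window holds the 250 bases before the transcription start in RefSeq (GRCm38.p6), read 5′ to 3′ on the strand of the gene. The windows are chr3:54360857-54361106 on the plus strand for Postn, chr4:64047016-64047265 on the minus strand for Tnc, chr2:125506439-125506688 on the minus strand for Fbn1 and chr1:194938571-194938820 on the plus strand for Cd34. The RefSeq start was 2 bp from the start of the GENCODE gene for Postn, 0 bp for Tnc, 1555 bp for Fbn1, where it lies inside the gene bounds and 53 bp from a principal transcript start, and 2 bp for Cd34, and the table holds 2 starts for Postn and for Tnc. Capitals mark a match to a searched motif.
Postn: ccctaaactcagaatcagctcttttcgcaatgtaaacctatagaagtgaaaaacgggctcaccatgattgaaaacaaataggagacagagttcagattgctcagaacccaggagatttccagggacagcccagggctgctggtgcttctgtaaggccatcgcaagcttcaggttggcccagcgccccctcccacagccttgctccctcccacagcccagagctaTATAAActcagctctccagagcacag
Tnc: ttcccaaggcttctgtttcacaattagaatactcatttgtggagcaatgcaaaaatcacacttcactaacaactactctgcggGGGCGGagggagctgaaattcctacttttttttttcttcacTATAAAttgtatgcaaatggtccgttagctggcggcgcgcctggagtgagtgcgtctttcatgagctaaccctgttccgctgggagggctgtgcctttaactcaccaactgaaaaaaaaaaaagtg
Fbn1: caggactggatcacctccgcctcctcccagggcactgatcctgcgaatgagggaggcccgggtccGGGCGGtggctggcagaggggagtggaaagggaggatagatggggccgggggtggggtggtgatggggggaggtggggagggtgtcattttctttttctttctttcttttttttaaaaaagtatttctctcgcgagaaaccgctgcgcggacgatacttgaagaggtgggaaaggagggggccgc
Cd34: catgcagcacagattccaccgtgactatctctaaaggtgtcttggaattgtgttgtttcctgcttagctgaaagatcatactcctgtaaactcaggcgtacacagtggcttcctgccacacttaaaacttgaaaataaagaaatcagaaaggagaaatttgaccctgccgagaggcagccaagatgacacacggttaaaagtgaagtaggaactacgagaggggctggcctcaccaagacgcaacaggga
Both strands were searched for 6 motifs, and each share is over 32851 windows of the same length. The TATA box, searched as TATAAA, occurred in 12.4% of them. The AP-1 element, searched as TGANTCA, occurred in 6.75%. A SMAD element, searched as CAGAC, occurred in 42.2%. The E-box of myogenic factors, searched as CAGCTG, occurred in 13%. The M-CAT element, searched as GGAATG, occurred in 12.6%. The GC box, searched as GGGCGG, occurred in 32.7%. Counting the base just before the start as -1, the TATA box letters began at -26 in Postn and at -126 in Tnc, and the GC box letters began at -167 in Tnc and at -185 in Fbn1. The Cd34 window held none of these letters. A match describes the sequence only, and no binding was measured in these libraries.

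By mean TPM over the 6 libraries the proteoglycans Dcn and Lum had the highest levels of the 10 genes, and neither was called. Dcn encodes decorin, a small proteoglycan that coats collagen fibrils and binds growth factors. Normalized Dcn counts were 23852, 10929 and 25418 with vehicle and 24748, 15555 and 12229 with BML-260. Each group held high and low libraries, and replicate 1 of both groups was near the top. The log2 fold change was -0.20 with an SE of 0.36 (edgeR, unadjusted p = 0.598), and 0.0025 without Vehicle replicate 3.

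Lum encodes lumican, a keratan sulfate proteoglycan that helps set the diameter of collagen fibrils. Lum had normalized counts of 3376, 1637 and 1079 with vehicle and 2546, 1539 and 1377 with BML-260. Unlike Dcn, Lum was lowest in Vehicle replicate 3, and replicate 1 was the highest library of each group. Lum had a log2 fold change of -0.16 with an SE of 0.41 (edgeR, unadjusted p = 0.702). Its sign depended on single libraries, at 0.43 without Vehicle replicate 1 and -0.47 without Vehicle replicate 3.

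Dcn and Lum are neighbors on chromosome 10 (GRCm38, GENCODE M21), both on the plus strand, with Dcn at chr10:97479609-97518143 and Lum at chr10:97565128-97572703, 46984 bp apart. The ratio of Dcn to Lum counts was 7.06, 6.67 and 23.6 in the vehicle libraries and 9.72, 10.1 and 8.88 in the BML-260 libraries. Vehicle replicate 3 had the highest ratio, and the 3 BML-260 ratios lay between it and the other two. The means were 12.4 ± 9.64 (SD, n = 3) and 9.57 ± 0.628 (SD, n = 3), with a p of 1.0 in a two-sided exact permutation test whose smallest possible p was 0.1.

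None of the 4 surface markers was called with all 6 libraries, and their fold changes ran from -0.32 for Pdgfra to 0.54 for Thy1. Pdgfra encodes platelet-derived growth factor receptor alpha, the receptor tyrosine kinase by which these progenitors are usually sorted. Normalized Pdgfra counts were 2311, 1805 and 2923 with vehicle and 2443, 1649 and 1548 with BML-260. BML-260 replicates 2 and 3 were the lowest of the 6, and BML-260 replicate 1 lay above 2 of the vehicle libraries. The vehicle mean was 2346 ± 560 (SD, n = 3), the BML-260 mean was 1880 ± 490 (SD, n = 3), and the log2 fold change was -0.32 with an SE of 0.23 (edgeR, unadjusted p = 0.203). Pdgfra was called without BML-260 replicate 1, at -0.56, and was -0.13 without Vehicle replicate 3.

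Thy1 encodes a small GPI-anchored glycoprotein of fibroblasts, neurons and T cells. It had low normalized counts, at 44.7, 62.6 and 23.1 with vehicle and 50.01, 69.8 and 68.7 with BML-260. Vehicle replicate 3 was the lowest, at 0.516 of the next lowest library, and vehicle replicate 2 lay within the BML-260 range. Thy1 had a log2 fold change of 0.54 with an SE of 0.41 (edgeR, unadjusted p = 0.221), and 0.23 without Vehicle replicate 3.

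Cd34 encodes a sialomucin that muscle fibroblast progenitors share with endothelial and satellite cells. Its normalized counts were 2038, 1449.6 and 2254 with vehicle and 2070.4, 1862 and 1609 with BML-260. The BML-260 values all lay within the vehicle range. The log2 fold change was -0.054 with an SE of 0.19 (edgeR, unadjusted p = 0.783), and 0.077 without Vehicle replicate 3.

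Fap encodes fibroblast activation protein, a membrane-bound serine protease. Fap had normalized counts of 533, 349.96 and 401 with vehicle and 529, 391 and 376 with BML-260. As for Dcn and Lum, replicate 1 was the highest BML-260 library, and for Fap and Lum it was the highest vehicle library too. Fap had a log2 fold change of 0.010 with an SE of 0.21 (edgeR, unadjusted p = 0.964), and its sign changed under 5 of 13 alternatives.

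**Figure D2:**
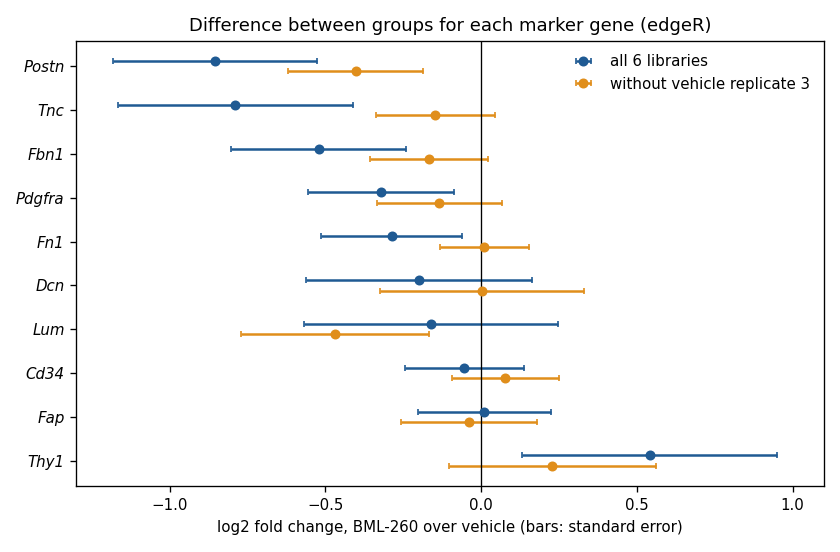
Log2 fold change of each of the 10 genes (x axis, BML-260 over vehicle) with all 6 libraries and without Vehicle replicate 3, with bars for the SE. Postn lies at -0.86 with all libraries and at -0.40 without that library, and Tnc moves from -0.79 to -0.15.

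The spread between mice was wider with vehicle for each of the 10 genes, as it was for 70.9% of tested genes. With only vehicle replicates 1 and 2 compared with the 3 BML-260 libraries, the vehicle SD was the larger for 7 of 10 genes, against 48.8% of tested genes. Postn and Fbn1 had BML-260 SDs of 9.55 and 163 normalized counts around means of 289.5 and 2447, whereas Dcn had an SD of 6485 around 17511.

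Levels between genes were compared in TPM, a unit that scales reads by gene length and library size. Dcn had a mean of 384 TPM over the 6 libraries, followed by Lum at 33.3, Cd34 at 28.2, Fn1 at 16.6, Pdgfra at 12.4, Fbn1 at 11.6, Fap at 5.95, Postn at 5.01, Tnc at 1.80 and Thy1 at 1.09. Dcn was above Lum in 6 of 6 libraries with no overlap of their ranges, and so was Fbn1 above Fap. Pdgfra and Fbn1 did not keep an order, with Pdgfra higher in 3 of 6 libraries, and Tnc was above Thy1 in 3 of 6. Lum was above Cd34 in 5 of 6 libraries and Fap was above Postn in 4 of 6. The other neighbors, Cd34 over Fn1, Fn1 over Pdgfra and Postn over Tnc, held their order in 6 of 6 libraries although their ranges overlapped.

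**Figure D3:**
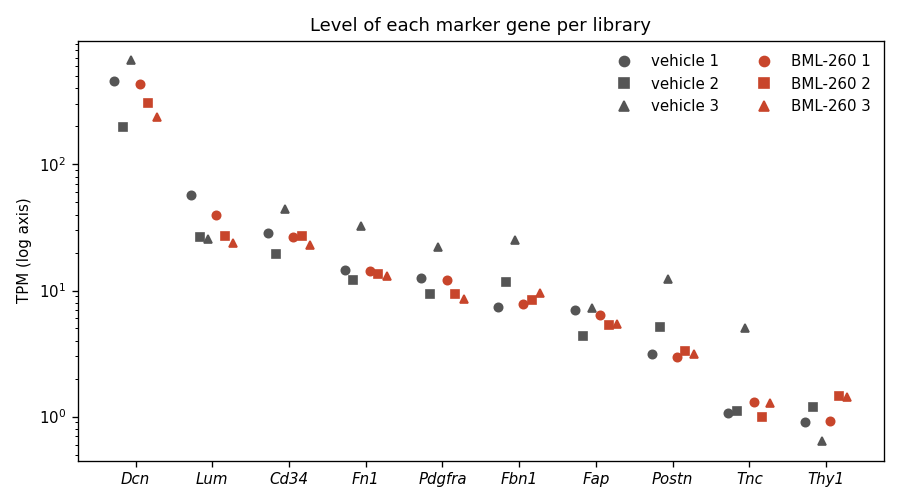
TPM (axis on a log scale) of the 10 genes in each of the 6 libraries, ordered by mean TPM. Dcn, with a mean of 384 TPM, lies above the ranges of all the other genes, and Tnc, with a mean of 1.80 TPM, is near 1 TPM in 5 libraries and at 5.03 TPM in Vehicle replicate 3.

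Summed over the 10 genes, TPM was 589, 287 and 851 with vehicle and 542.5, 401 and 327.5 with BML-260. The highest and the lowest sums were both vehicle libraries. Dcn alone made up 68.4% to 79.5% of each sum. These sums do not use the size factors, and the unit changes how far Vehicle replicate 3 stood out. In Vehicle replicates 3 and 1 Dcn was at 676 and 456 TPM, but at 25418 and 23852 normalized counts.

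The other genes of these families were taken from lists of the same roles. Among 18 other fibro-adipogenic progenitor and fibroblast genes, all tested, 0 were called and the median log2 fold change was -0.15. The smallest p was that of Cxcl14, a secreted chemokine, at -0.65 with an SE of 0.30 (edgeR, unadjusted p = 0.0591). Gsn, which encodes the actin-severing protein gelsolin and had the highest TPM of this list, was at -0.066. Without Vehicle replicate 3, Cd55, a complement regulator, was called lower at -0.38 and Pi16, a marker of a progenitor subset, higher at 0.56, and the median was -0.047. Col15a1, which encodes a basement membrane collagen and was named after its values were seen, had 207 normalized counts in Vehicle replicate 3 and 944 to 997 in the other 5 libraries.

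Among the small leucine-rich proteoglycans other than Dcn and Lum, 1 of 10 tested genes was called. Bgn, which encodes biglycan and is the closest relative of decorin, had 1511, 1775 and 2650 normalized counts with vehicle and 1323, 1027 and 1021 with BML-260. Its 3 vehicle libraries were all above the 3 BML-260 libraries, which no member showed. Bgn had a log2 fold change of -0.82 with an SE of 0.22 (edgeR, unadjusted p = 0.0060, Benjamini-Hochberg adjusted p = 0.655), and -0.55 without Vehicle replicate 3, where Bgn was still called. Ogn, which encodes osteoglycin and was the most abundant of the list, was at 0.15.

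Elastic fiber and microfibril genes other than Fbn1 gave 1 call among 11 tested. Eln encodes tropoelastin, which is deposited on fibrillin microfibrils. It had 168, 207 and 275 normalized counts with vehicle and 138, 67.8 and 114 with BML-260, again without overlap. Such a separation was not particular to Bgn and Eln. Ltbp1 of this list, at a log2 fold change of only -0.095, and Mfap5 and Ccn2 of other lists were also lower without overlap. Eln had a log2 fold change of -1.02 with an SE of 0.31 (edgeR, unadjusted p = 0.0101) and -0.81 without Vehicle replicate 3. Ltbp4, which encodes a latent TGF-beta binding protein of the microfibrils, was at 0.033.

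All 11 tested matricellular genes other than Postn and Tnc had a fold change below 0, with a median of -0.27, and 2 were called. These were Thbs1, which encodes thrombospondin-1, at -1.54 and Ccn2, which encodes connective tissue growth factor, at -0.87. Of the 11, 10 were highest in Vehicle replicate 3, and without it 6 of 11 were below 0, 0 were called and the median was -0.015. Sparc, the most abundant of them, which encodes a collagen-binding glycoprotein, was at -0.082. Postn and Tnc had lower fold changes than the median of this list with all libraries, and both also came closer to 0 without Vehicle replicate 3.

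Of 6 fibrillar collagens, Col1a1 at -0.43 and Col5a2 at -0.38 were called, and the median was -0.10. Without Vehicle replicate 3 neither was called and Col3a1, the most abundant of the 6, was called at -0.39. Of 8 receptors for fibronectin, tenascin and periostin, the integrin subunit Itgb3 was called at -1.56 and the syndecan Sdc4 at -0.82, and Itgb1, the most abundant of them, was at -0.14. Itgb3 was also called without Vehicle replicate 3, at -1.01, and Sdc4 was not.

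None of 5 PDGF genes was called. Pdgfa, which encodes a ligand of the Pdgfra receptor, had the smallest p of these at 0.26 with an SE of 0.14 (edgeR, unadjusted p = 0.0965), and Pdgfrb, the receptor of pericytes, was at 0.074. Of 12 TGF-beta genes, Tgfbr3, which encodes the co-receptor betaglycan, was called at -0.50 and was not called without Vehicle replicate 3. Smad3, a signal transducer of the pathway, was at 0.37, and at 0.026 without Vehicle replicate 3. None of 5 tested myofibroblast genes was called, with Cnn1, a calponin, at -0.95 and the myosin light chain gene Myl9 at 0.074.

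**Figure D4:**
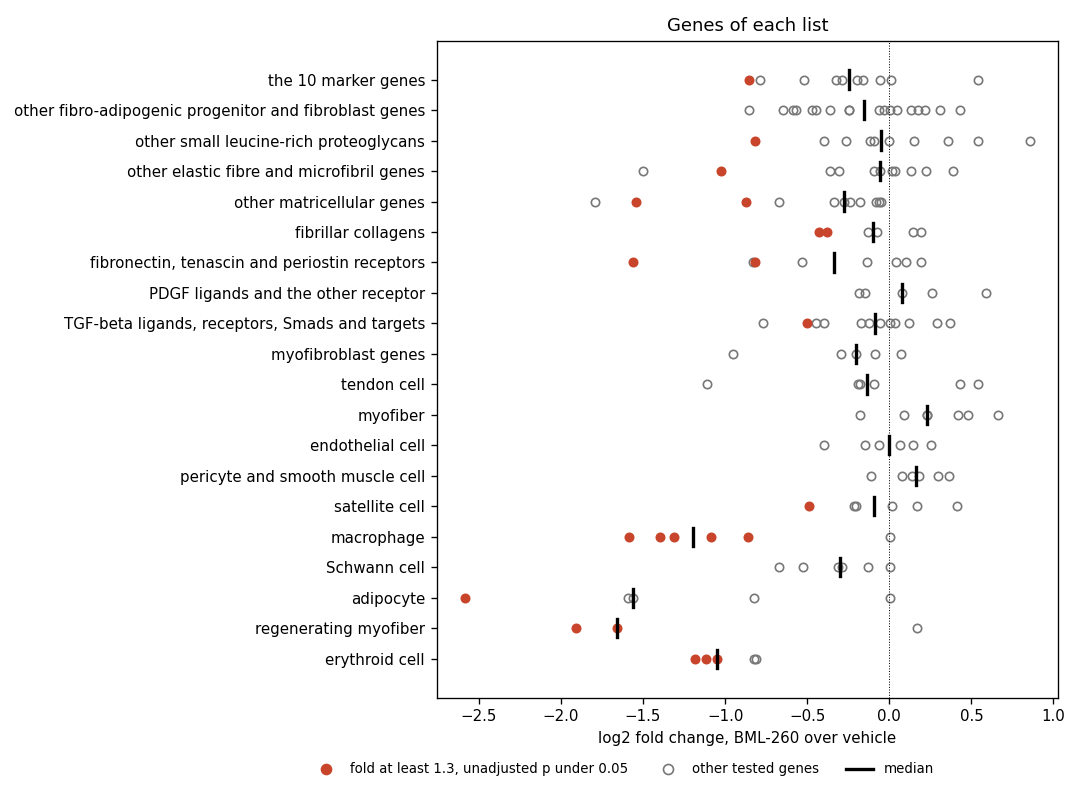
Log2 fold change (x axis, BML-260 over vehicle) of every tested gene in the 10 marker genes and the other gene lists, with filled points for genes called and a vertical bar for the median of each list. The marker genes have a median of -0.24 and 1 filled point, and the macrophage genes have a median of -1.20 and 5 filled points.

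Markers of some other cells in whole muscle moved with Vehicle replicate 3 beside the members. Of 6 macrophage genes 5 were called lower (Adgre1, Csf1r, Mrc1, C1qa and C1qb), the median of the 6 was -1.20, and their summed TPM was 45.7 to 164 with vehicle and 31.2 to 35.7 with BML-260. Without Vehicle replicate 3 there were still 5 called lower, with a median of -0.64. All 6 Schwann cell genes were highest in Vehicle replicate 3, with a summed TPM of 102 there against 21.6 to 32.6 elsewhere. Their median log2 fold change was -0.30, and 0.58 without that library. The 5 erythroid genes were also all highest there, at 8752 TPM against 1619 to 2162 TPM elsewhere, and 3 (Hba-a1, Hba-a2 and Alas2) were called lower, with a median of -1.05. Without Vehicle replicate 3 the erythroid median was -0.32, and 2 were called, Hba-a1 and Hba-a2. Of the satellite cell genes 1 of 6, Vcam1, was called lower, and of the regenerating fiber genes Myh3 and Myog were called lower, 2 of 3 tested. Without Vehicle replicate 3, Vcam1 at -0.52, Myh3 at -1.22 and Myog at -1.08 were still called lower. Of the regenerating fiber genes 3 of 4 tested were then called lower, with Mymk added. None of 6 pericyte and smooth muscle genes was called. Of the adipocyte genes 1 of 5 tested was called, which was Cfd at -2.58, and none was called without Vehicle replicate 3. The tendon genes, which share matrix products with fibroblasts, had 0 calls among 6 and summed to 50.7 to 147 TPM with vehicle and 53.5 to 89.8 TPM with BML-260. Endothelial genes, which share Cd34, had 0 calls among 6 and summed to 62.5 to 87.4 TPM with vehicle and 58.8 to 73.0 TPM with BML-260. No T cell gene had enough counts to be tested, with at most 12 counts in any library. The myofiber genes summed to 81724 TPM in Vehicle replicate 3 and to 94471 to 117537 TPM in the other 5 libraries. By normalized counts 6 of the 7 were lowest in Vehicle replicate 3. Of the 6 pericyte and smooth muscle genes 5 were lowest there by normalized counts. In TPM the 6 summed to 426 there and to 361 to 455 elsewhere. The part of any of these cells in the values of the 10 genes was not tested.

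On GRCm38, with GENCODE M21 gene bounds, the other members lie at chr5:75152292-75198215 (Pdgfra), chr9:44043384-44048579 (Thy1), chr1:194938819-194961279 (Cd34), chr2:62500943-62574075 (Fap), chr1:71585520-71653200 (Fn1), chr2:125300594-125507993 (Fbn1), chr3:54361109-54391037 (Postn) and chr4:63959785-64047015 (Tnc). Another annotated gene overlaps 5 of the 10, namely Pdgfra, Cd34, Fn1, Fbn1 and Tnc. The overlapping gene had at most 13 counts in any library for Cd34, 0 for Fn1 and 4 for Tnc, against at least 1135, 2254 and 172 counts of the member itself. For Pdgfra the counted partner had at most 4 counts against at least 1261, and 2 further partners of Pdgfra and the partner of Fbn1 were not matched in the count table.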

How the data were processed

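RNA-seq libraries of whole muscle from 3 vehicle and 3 BML-260 mice were grouped by their labels. The submitters' processing notes name the mm10 build, StringTie 2.1.3b, Trimmomatic 0.38, and the aligners Bowtie2 2.3.4.1 and HISAT2 2.1.0. The authors deposited raw read counts per gene for 45777 genes and, for 16800 of them, TPM values. These 16800 all had a count in every library. Whether counting used strand is not given in the sources used here. Columns of the authors' own comparisons were not used. Members and lists were chosen with earlier results of these data known.

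The counts of all genes passing filterByExpr (16188) were fitted with edgeR 4.0.16 in R 4.3.3, with TMM factors, the quasi-likelihood test between the groups and Benjamini-Hochberg adjustment over all tested genes. SE was the absolute log2 fold change divided by the square root of F. Normalized counts were counts divided by DESeq2 1.42.0 size factors (0.783 to 1.34). Levels between genes used the deposited TPM. Named were the 10 members and, in each pathway list, the gene with the smallest p, that with the highest mean TPM and up to 4 called genes. Genes named beside these were chosen after their values were seen. They were the called genes of a list without Vehicle replicate 3, Pdgfrb, Col15a1, Mfap5, Ltbp1 and the genes of other cell types. The script was tested on simulated data. The methods give 3 mice per group, read here as 1 library per mouse. The 13 alternatives covered normalization, filters, DESeq2, limma 3.58.1 on log2(TPM + 1) and log2(TPM + 0.1), a replicate block and each library left out. Lists without Vehicle replicate 3 were added after the data were seen. Promoters came from RefSeq, where 5 of the 10 members had an entry.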

Additional observations from a re-analysis of the deposited data

How the results depend on the processing

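The 931 genes called at 1.3-fold became 1416 with no filter on low counts, 503 with limma on log2(TPM + 1) and 503 to 2223 with 1 library left out, the extremes being without BML-260 replicate 2 and without Vehicle replicate 1. The count at an adjusted p below 0.05, which was 0, became 1 with no filter, 1 with at least 10 counts in every library, 95 with DESeq2 and 0 to 9 with 1 library left out. The 1 member called became 2 with no filter or with DESeq2, 0 with limma on TPM at either pseudocount, and 0 to 3 with 1 library left out: 3 without Vehicle replicate 1, 2 without Vehicle replicate 2, 1 without BML-260 replicate 1 and 0 without any other library. The median of the members stayed below 0, from -0.50 to -0.087, with 1 library left out. The median of all genes, -0.0039, was -0.098 with limma on TPM and -0.14 with a pseudocount of 0.1. The sign of Fap changed with limma, at -0.081 and -0.088 for the pseudocounts 1 and 0.1. With 1 library left out, sign changes were seen for Fap (-0.16 to 0.20, negative without Vehicle replicate 2, Vehicle replicate 3 or BML-260 replicate 1), Lum (-0.48 to 0.43, positive without Vehicle replicate 1 or BML-260 replicate 3), Cd34 (-0.22 to 0.077) and Dcn (-0.53 to 0.0046), both positive without Vehicle replicate 3 or BML-260 replicate 3, and Fn1 (-0.45 to 0.011, positive without Vehicle replicate 3). The cause was not tested. Of 130 values of single members, 12 changed sign and the others kept their direction. A replicate block gave 1057 calls among 16188 tested genes (731 lower and 326 higher, against 786 and 145). It called 0 of the 10 members, with Postn at -0.73. Deviations of same-numbered libraries from their group means correlated at 0.162, 0.0541 and 0.1096. In these deviations alone, every library correlated best with its own number in the other group. These correlations were low, and this is a weak hint from the data and not from the design. With 3 mice per group, differences of the size of the vehicle spread could not be resolved.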
